A study of Mus musculus with 8 samples.

Results

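The genes described here are Hr, the hairless gene, its partner Vdr and 8 genes that act in hair differentiation, namely Msx1, Msx2, Hoxc13, Foxn1, Dlx3, Padi1, Padi2 and Padi3. They were found by gene name or synonym among the probes of a mouse whole-genome array, which gave 10 of 21314 named genes and 11 of 41174 probes, 1 for each gene except Msx1, which had 2. The RNA came from back skin (dorsal skin) of male mice of the hairless SKH-1 strain, 19 weeks old. Each of the 8 mice was about 6 weeks old at the start and had its back irradiated with UVB for 10 weeks. From 1 week after the irradiation, the backs of 4 mice were treated with enalapril maleate, at 1% w/v in an ethanol solution of 30 vol %, 5 times a week for 2 weeks, and those of 4 others with the 30 vol % ethanol without the drug, called vehicle here. Enalapril blocks angiotensin-converting enzyme. The labels name the strain and no allele, no mouse was left unirradiated, and the mice share the hairless background, so the values compare drug with vehicle in irradiated hairless skin and hold no reference for haired skin. The question of the comparison is what locally applied enalapril did to gene expression after UVB.

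Hr encodes a nuclear corepressor that is needed for the follicle to regrow after it regresses. In hairless mice, which carry a mutant Hr, the first coat is shed and the follicles then break up into utricles and dermal cysts in place of a new cycle of growth. The vitamin D receptor, encoded by Vdr, binds the hairless protein, and its loss gives a similar failure of the second hair cycle. Msx1, Msx2 and Dlx3 are homeobox factors, Hoxc13 is a Hox factor of the hair matrix and cuticle, and Foxn1 is the forkhead factor that is mutated in nude mice. Several of them drive hair keratin genes in the growing shaft. Padi1, Padi2 and Padi3 encode peptidylarginine deiminases, enzymes that turn arginine into citrulline in proteins such as trichohyalin, filaggrin and the hair cuticle protein S100A3.

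A level below is the log2 of the processed spot intensity minus the 75th percentile of the same array, so 0 is the intensity of a spot at that percentile, and levels of different probes are not compared. Probes well above background on 4 or more arrays were tested, and a probe was called at a Benjamini-Hochberg adjusted p under 0.05 from limma over 28580 probes. Between 67.1% and 72.7% of spots were well above background on each array, and the 75th percentile ranged from 821.5 to 1540 intensity units. The vehicle arrays shared 1 slide and the enalapril arrays another, so for every difference below slide and drug cannot be told apart. Array enalapril 4 lay farthest from the rest of its group. Its median absolute deviation over probes, from the mean of the group's other arrays, was 0.28. The other 7 arrays had 0.14 to 0.20. All 7 basal and all 7 suprabasal keratinocyte markers were tested and 0 of them were called by limma (1 basal and 0 suprabasal at an unadjusted p under 0.05). The 7 hair shaft and 5 inner root sheath markers on the array were well above background too, in this hairless strain. In bulk skin, fewer cells of a type and less RNA per cell cannot be told apart.

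Of the 11 member probes, 10 passed the filter and 0 were called, where 10.4% of all probes tested were called (3.82% higher and 6.61% lower in enalapril). At an unadjusted p under 0.05, 1 member probe passed, that of Msx2, against 29.4% of all probes. The median change of the tested members was −0.01 and that of all probes was −0.05, with 5 of 10 members and 55.5% of probes below 0. The widest differences were those of Hoxc13, Padi3, Msx2 and Foxn1, each between 0.41 and 0.55 log2 units in size. The plot of member levels by array shows them all on one scale.

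**Figure D1:**
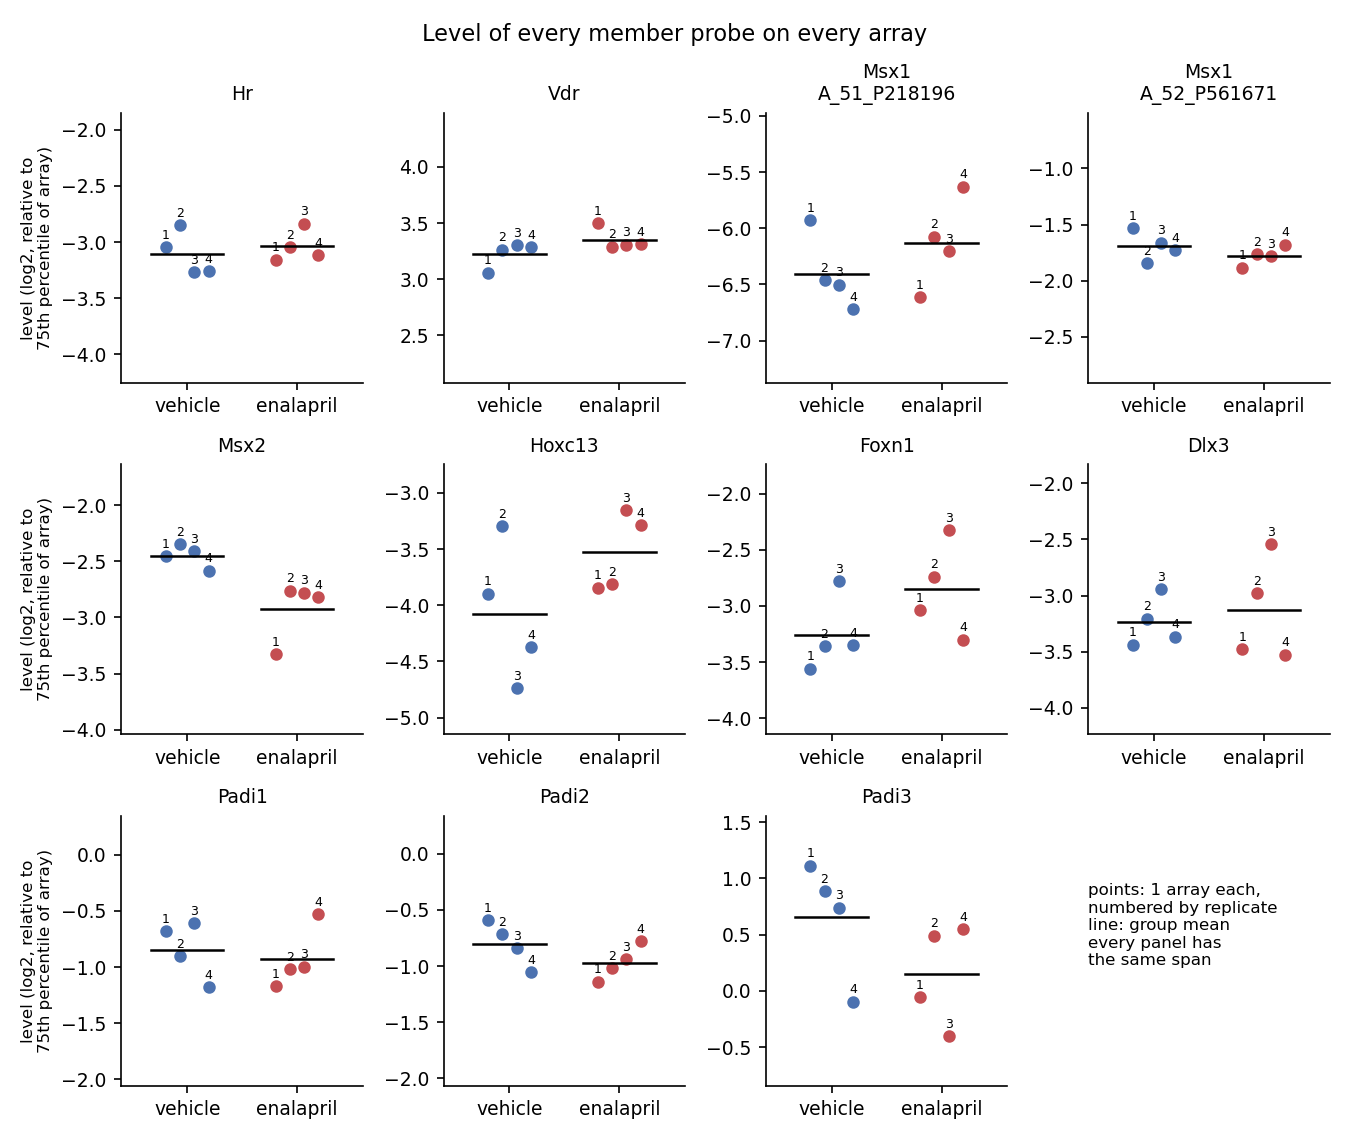
Level (log2 of the processed intensity relative to the 75th percentile of the array) of each member probe on each of the 8 arrays, with vehicle in blue, enalapril in red, numbers for the replicate and a line at the group mean. Msx2 is the member whose groups do not overlap, with vehicle from −2.58 to −2.35 and enalapril from −3.33 to −2.76; Padi3 has 3 vehicle arrays above every enalapril array and 1 within their range.

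The upstream stretches of Msx2, Foxn1 and Padi3 are shown because their genes had 3 of the 4 widest differences. They are the 250 bases before the annotated start, in RefSeq's GRCm38.p6 assembly, which held such an entry for 7 of the 10 members (Vdr, Msx1, Msx2, Foxn1, Padi1, Padi2 and Padi3) and not for Hr, Hoxc13 and Dlx3. Msx2 is at chr13:53472781-53473030, Foxn1 at chr11:78386609-78386858 and Padi3 at chr4:140810649-140810898, each on the minus strand and read 5′ to 3′ along the gene. Capitals mark a match to any of the 5 motifs searched.
Msx2: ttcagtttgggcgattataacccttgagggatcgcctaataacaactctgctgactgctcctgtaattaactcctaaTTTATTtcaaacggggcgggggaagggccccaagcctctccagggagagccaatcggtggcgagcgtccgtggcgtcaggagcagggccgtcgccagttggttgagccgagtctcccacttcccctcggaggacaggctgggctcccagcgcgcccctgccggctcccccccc
Foxn1: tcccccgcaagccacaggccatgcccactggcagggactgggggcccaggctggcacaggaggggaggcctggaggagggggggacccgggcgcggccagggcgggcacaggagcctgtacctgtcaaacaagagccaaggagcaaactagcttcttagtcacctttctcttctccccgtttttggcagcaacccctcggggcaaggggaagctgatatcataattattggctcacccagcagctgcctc
Padi3: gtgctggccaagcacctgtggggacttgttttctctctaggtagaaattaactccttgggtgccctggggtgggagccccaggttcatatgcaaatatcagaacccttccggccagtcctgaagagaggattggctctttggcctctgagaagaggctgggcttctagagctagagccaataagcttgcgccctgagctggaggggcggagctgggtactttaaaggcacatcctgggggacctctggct
The motifs were TATAAA (the TATA box), CACGTG (an E-box), AGGTCA (the nuclear receptor half-site), TAATTG (a homeobox core) and TTTATT (an A/T-rich hexamer of the kind bound by the Hox13 group), on both strands and with no motif overlapping another in these stretches. Of the 7 members only Msx2 and Padi2 held a match, each to TTTATT. The Msx2 match lay 173 bases before the start on the plus strand of the gene, and the Padi2 match 174 bases before it on the minus strand. Over 32851 mouse upstream stretches of the same length, 18.1% held TTTATT, 14.0% AGGTCA, 12.4% TATAAA, 7.17% TAATTG and 6.02% CACGTG. The G and C content was 61.6% in the Msx2 stretch, 63.2% in Foxn1 and 56.0% in Padi3.

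The level of Hr itself overlapped between the groups. The probe (A_51_P159113) read −3.05, −2.85, −3.27 and −3.26 on the vehicle arrays and −3.16, −3.04, −2.84 and −3.12 on the enalapril arrays. Vehicle 3 and 4 lay below every enalapril array, and vehicle 1 and 2 lay within the enalapril range. The raw intensities ran from 92.2 to 214 units, well above background on all 8 arrays. The difference was 0.07 ± 0.13 (SE; limma, adjusted p = 0.769, n = 4 per group), with a 95% confidence interval from −0.23 to 0.36. It was larger in size than that of 15% of the probes tested. The array files do not place the probe within the gene, so what it reads of the transcripts of a mutant allele is not known. The widest move under another processing was to 0.58 with normexp background correction (adjusted p = 0.497). On enalapril 3 the local background of 6 spots lay far above the spots themselves. With that background replaced (the repaired normexp) Hr was at 0.13 (adjusted p = 0.54). Without enalapril 3 the difference was −1e-04. The deposited series matrix values and centring on control probes move every probe by the same amount, −0.37 and −0.07, so the sign of Hr turns under them with no information on this gene.

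Vdr was bright and even. Its probe (A_52_P334562) read 3.06, 3.26, 3.30 and 3.29 in vehicle and 3.50, 3.29, 3.31 and 3.31 in enalapril. Vehicle 1 was the lowest and enalapril 1 the highest of the 8, and the other 6 arrays lay between 3.26 and 3.31. The difference was 0.12 ± 0.10 (adjusted p = 0.454), with an interval from −0.11 to 0.35. It was −0.09 with normexp and 0.08 with the repaired normexp.

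The genes that work with Hr and Vdr were taken as a list of 18, of which 16 were tested. In this list 0 rose and 2 fell, and the median change was 0.01, beside 2.78% higher and 8.42% lower over 16375 named genes with 1 probe each and a median of −0.10. Dkkl1, a relative of the Dickkopf Wnt antagonists, read 2.40, 2.66, 2.40 and 2.97 in vehicle and 1.82, 1.95, 1.82 and 1.86 in enalapril. The groups were well apart, and Dkkl1 fell by 0.74 ± 0.14 (adjusted p = 0.0212). Rxrg, which encodes a retinoid X receptor that can pair with the vitamin D receptor, fell by 0.55 ± 0.14 (adjusted p = 0.047). Its 2 relatives were not called, with Rxrb at −0.23 (adjusted p = 0.297) and the bright Rxra probe at 0.37 (adjusted p = 0.0625). The bright Rxra probe read 3.51 to 3.89 in vehicle and 3.98 to 4.12 in enalapril, with no overlap. A dimmer Rxra probe differed by 0.04 (adjusted p = 0.871). Thra, a thyroid hormone receptor that also binds the hairless protein, gave −0.50 on its brighter probe (adjusted p = 0.0601) and 0.19 on the other (adjusted p = 0.451), so its probes disagreed in sign. Sostdc1, a Wnt and BMP antagonist repressed by Hr, was at −0.03 (adjusted p = 0.921). The corepressor gene Ncor1 gave 0.49 (adjusted p = 0.088), and the vitamin D degrading enzyme gene Cyp24a1, a classical Vdr target, failed the filter. With 1 array left out in turn, Dkkl1 was called in 4 of 8 fits (adjusted p from 0.0142 to 0.0599; not without vehicle 2 or enalapril 1, 2 or 3) and Rxrg in 1 of 8, that without enalapril 4 (0.0306 to 0.118).

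Msx2 came closest to the threshold. This homeobox factor is expressed in the hair matrix, and mice without it lose hair in cycles. Its probe (A_51_P388661) read −2.45, −2.35, −2.41 and −2.58 in vehicle and −3.33, −2.76, −2.78 and −2.82 in enalapril. Every enalapril array was below every vehicle array, as in 13.1% of all probes tested. Groups did not overlap in 1 of the 10 tested members, this one, where 20.2% of all probes had no overlap in either direction. The mean was −2.45 ± 0.10 (SD, n = 4) in vehicle and −2.92 ± 0.27 in enalapril, a difference of −0.47 ± 0.145 (SE) with an interval from −0.80 to −0.14. The unadjusted p in limma was 0.0104 and the adjusted p 0.0721, so Msx2 did not pass.

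The Msx2 probe is printed 10 times on each array, which shows the noise between spots of one array. The SD between the 10 spots of an array was 0.03 to 0.06, with a median of 0.05. The SD between the 4 arrays of a group, 0.10 in vehicle and 0.27 in enalapril, also holds labelling and hybridisation error, since each mouse had 1 array. The spots of enalapril 1 lay below those of every other array, and the spots of the remaining 3 enalapril arrays lay below those of all 4 vehicle arrays. Without enalapril 1 the difference was −0.34 (adjusted p = 0.103). Without enalapril 4 it was −0.51 and passed (adjusted p = 0.0483), in a fit that called 6992 of 28326 probes. Msx2 also passed with array weights, which count outlying arrays less (−0.42, adjusted p = 0.037) and called 8534 of 28580 probes. With the planned normexp background correction it was 0.17 (adjusted p = 0.8), and −0.27 (adjusted p = 0.195) once the local background of 6 spots on enalapril 3, which lay far above the spots themselves, had been replaced. Median local background ranged from 57 to 66 units in vehicle and from 48 to 52 in enalapril, and its part in the Msx2 difference was not tested.

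**Figure D2:**
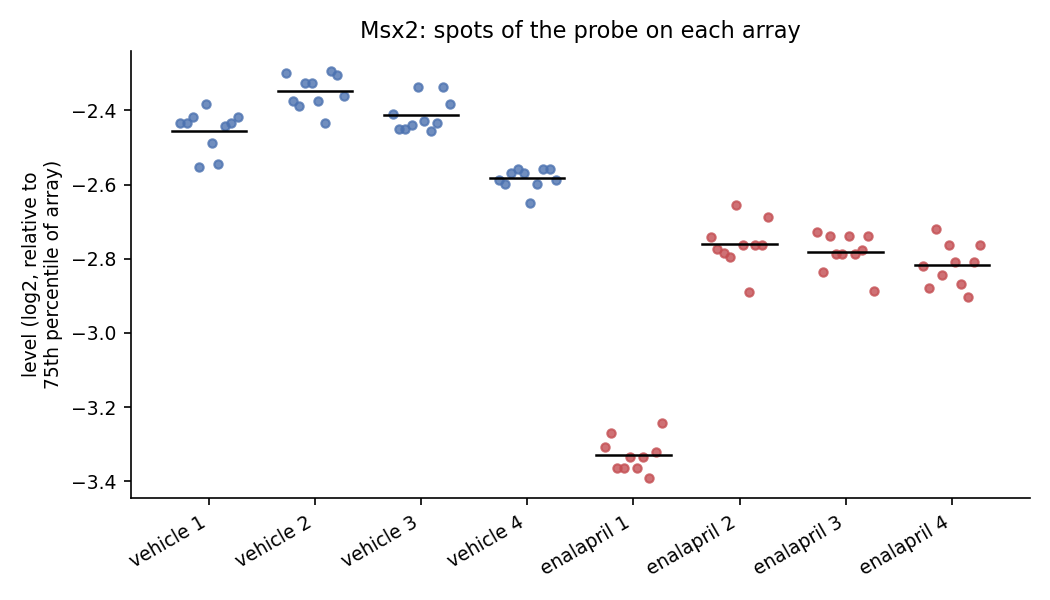
Level of the 10 spots of the Msx2 probe on each of the 8 arrays (log2, relative to the 75th percentile of the array), with vehicle in blue, enalapril in red and a line at the array mean. Spots of 1 array lie close together, enalapril 1 is lowest at −3.33 and the other 3 enalapril arrays, at −2.82 to −2.76, are below the 4 vehicle arrays.

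Msx1, the paralog of Msx2, had 2 probes. The brighter (A_52_P561671) read −1.53, −1.84, −1.66 and −1.73 in vehicle and −1.88, −1.76, −1.78 and −1.68 in enalapril. These sets overlapped, and the difference was −0.09 ± 0.10 (adjusted p = 0.619, interval −0.32 to 0.15). It was 0.16 with normexp and −0.10 with the repaired normexp. The other probe (A_51_P218196), also printed 10 times, was well above background on 0 of the 4 vehicle and 3 of the 4 enalapril arrays and was not tested. Its measured means were −6.40 ± 0.34 (SD) in vehicle and −6.13 ± 0.41 in enalapril. The bound on its difference was at least 1.01-fold higher in enalapril, and it rested on enalapril 4, where 1 spot read 104 units and the other 9 read 10.1 to 20.4. Without that array the enalapril mean was −6.30 and no fold could be given. Its spots scattered far more than those of Msx2, with an SD on one array of 0.22 to 0.93.

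Dlx3, a homeobox factor of the hair matrix and the upper epidermis, and Foxn1 had their highest level on the same arrays. The Dlx3 probe (A_52_P503466) read −3.44, −3.20, −2.94 and −3.37 in vehicle and −3.48, −2.98, −2.54 and −3.52 in enalapril. The Foxn1 probe (A_51_P114148) read −3.56, −3.36, −2.78 and −3.35 in vehicle and −3.04, −2.74, −2.32 and −3.30 in enalapril. In both genes replicate 3 was highest in each group and enalapril 4 lowest in its group. Dlx3 differed by 0.11 ± 0.23 (adjusted p = 0.791; interval −0.41 to 0.63), which became −0.09 without enalapril 3. Foxn1 differed by 0.41 ± 0.24 (adjusted p = 0.284; interval −0.13 to 0.95), with 3 of 4 enalapril arrays above the vehicle mean. With array weights Foxn1 was 0.60 and passed (adjusted p = 0.0377), in a fit that called 8534 of 28580 probes. 

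Hoxc13, whose loss gives brittle hair, had the largest SD within a group among the members, 0.63 in vehicle. Its probe (A_51_P378277) read −3.90, −3.29, −4.74 and −4.37 in vehicle and −3.84, −3.81, −3.15 and −3.29 in enalapril. Vehicle 3 and 4 were low, vehicle 2 was as high as the brighter enalapril arrays, and all 4 enalapril arrays were above the vehicle mean. The difference of 0.55 ± 0.31 (adjusted p = 0.271) was larger in size than that of 85.4% of probes, and its interval ran from −0.16 to 1.26. It ranged from 0.33 without vehicle 3 to 0.81 without vehicle 2, and was 0.26 with array weights.

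Relatives of these factors, 22 genes of the Msx, Dlx, Hox and Fox families, gave 12 tested, 0 higher and 1 lower, with a median of −0.14. Over 16375 named genes with 1 probe each 2.78% were called higher and 8.42% lower, with a median of −0.10. Foxe1, a forkhead factor of the follicle, read −3.44, −3.77, −3.42 and −3.26 in vehicle and −4.76, −4.28, −4.29 and −4.17 in enalapril. It fell by 0.90 ± 0.16 (adjusted p = 0.0194) with no overlap. The Hoxc cluster genes with the smallest p, Hoxc8 at 0.59 (adjusted p = 0.123) and Hoxc9 at −0.37 (adjusted p = 0.182), were of opposite sign and not called. Foxe1 is dim, and its value was 0.40 with normexp and −0.24 with the repaired normexp (adjusted p = 0.659 and 0.315). It was called in 4 of 8 fits with 1 array left out (adjusted p from 0.00844 to 0.0577; not without vehicle 1 or 4 or enalapril 2 or 3).

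**Figure D3:**
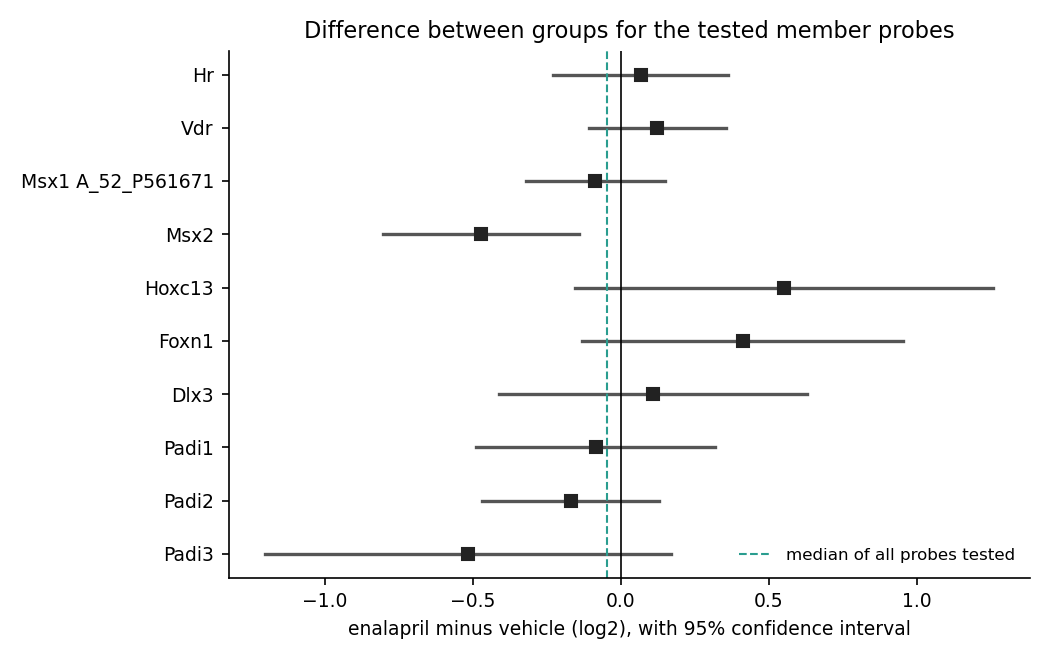
Difference between groups (enalapril minus vehicle, log2) of the 10 tested member probes as squares, with 95% confidence intervals as bars and the median of all probes tested, −0.05, as a dashed line. Msx2 is the one interval that leaves out 0 (−0.80 to −0.14), before adjustment over all probes; Hoxc13 and Padi3 have the widest intervals.

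Among 28 further regulators of the hair matrix and bulge, 27 were tested, 1 rose and 1 fell, with a median of 0.10. Over 16375 named genes with 1 probe each 2.78% were called higher and 8.42% lower, with a median of −0.10. Lgr5, a receptor for R-spondins that marks stem cells of the lower bulge and hair germ, read −0.99, −1.31, −1.10 and −1.27 in vehicle and −0.07, −0.08, −0.15 and −0.38 in enalapril. It rose by 1.00 ± 0.12 (adjusted p = 0.00918), and it was called in all 8 fits with 1 array left out. A second Lgr5 probe was not well above background on any array. In the series matrix values, which are not scaled between arrays, Lgr5 was at 0.63 and not called (adjusted p = 0.196). Fgf5, the growth factor that ends hair growth, read −3.35, −3.60, −3.69 and −4.02 in vehicle and −4.88, −4.21, −4.83 and −4.33 in enalapril. It fell by 0.89 ± 0.20 (adjusted p = 0.0323), and it was called in 2 of 8 fits with 1 array left out, those without vehicle 4 and without enalapril 4. Fgf5 is dim as well, at 0.32 with normexp and −0.33 with the repaired normexp. Runx1, a stem cell factor of the bulge, gave 0.78 on its brighter probe (adjusted p = 0.0719) and −0.29 on the other (adjusted p = 0.189). Lef1, the Wnt effector that binds hair keratin promoters, gave 0.16 (adjusted p = 0.463) and 0.17 (adjusted p = 0.588) on its 2 tested probes, and its remaining probe was not well above background on any array.

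**Figure D4:**
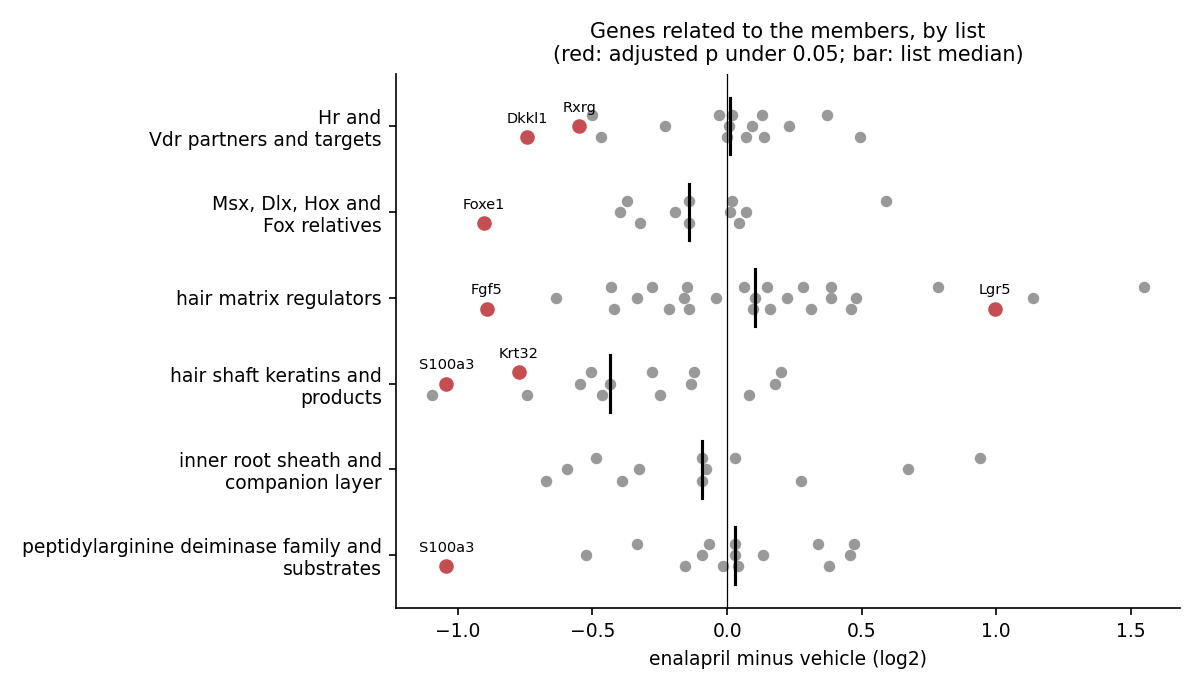
Difference between groups (log2) of each tested gene in the 6 lists of related genes, 1 probe per gene, with calls in red and named and the list median as a bar. Of 94 tested genes Lgr5 is the one call to the right, at 1.00; Dkkl1, Rxrg, Foxe1, Fgf5, S100a3 and Krt32 lie to the left between −1.04 and −0.55, and the hair shaft list has its median at −0.44.

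None of the 3 deiminase members passed the test. Padi1, the epidermal and inner root sheath form (A_51_P439403), read −0.68, −0.90, −0.61 and −1.18 in vehicle and −1.17, −1.02, −0.996 and −0.53 in enalapril. The groups covered the same range, and the difference was −0.09 ± 0.18 (adjusted p = 0.787, interval −0.49 to 0.32). It was 0.09 with normexp and −0.06 with the repaired normexp. Padi2, the widely expressed form (A_51_P280117), read −0.59, −0.72, −0.84 and −1.06 in vehicle and −1.14, −1.02, −0.94 and −0.78 in enalapril. Its difference was −0.17 ± 0.13 (adjusted p = 0.426; interval −0.47 to 0.13), and the sets overlapped.

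Padi3, the form of the hair shaft and inner root sheath, had a lower mean in enalapril that did not pass the test. Its probe (A_51_P450549) read 1.11, 0.89, 0.74 and −0.10 in vehicle and −0.06, 0.49, −0.40 and 0.55 in enalapril. All 4 enalapril arrays were below the vehicle mean, but vehicle 4 was below 3 of them. The difference was −0.52 ± 0.30 (adjusted p = 0.289), with an interval from −1.20 to 0.17. It ranged from −0.77 without vehicle 4 to −0.33 without enalapril 3. The sign was kept in each of the 22 settings, several of which leave the estimate itself unchanged.

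S100a3, a calcium-binding protein of the hair cuticle and a substrate of Padi3, was called lower in enalapril. It read 1.88, 1.21, 1.88 and 1.30 in vehicle and 0.07, 1.02, 0.26 and 0.75 in enalapril. Enalapril 1 and 3 were the lowest enalapril arrays for S100a3 as for Padi3. The same 2 arrays were lowest in 10 of 15 tested hair shaft genes and 7 of 12 tested inner root sheath and companion layer genes, and in 20.7% of all probes, a count made after the values were seen. S100a3 fell by 1.04 ± 0.25 (adjusted p = 0.0372), a call that was kept in 1 of 8 fits with 1 array left out, that without enalapril 4 (adjusted p from 0.0235 to 0.095). Among 16 genes of the deiminase family and its substrates, 15 were tested, 0 rose and 1 fell, S100a3, with a median of 0.03. Over 16375 named genes with 1 probe each 2.78% were called higher and 8.42% lower, with a median of −0.10. The other substrates named here were not called. Tchh, trichohyalin, gave 0.03 (adjusted p = 0.941) on its bright probe and 0.58 (adjusted p = 0.359) on a dim one. Krt1, a keratin of the upper epidermis, gave 0.04 (adjusted p = 0.863) and −0.18 (adjusted p = 0.571). Hrnr, hornerin, gave 0.47 (adjusted p = 0.0622) and 0.27 (adjusted p = 0.302), and Vim, vimentin, gave 0.34 (adjusted p = 0.145), with a second probe not well above background on any array.

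The remaining genes of the deiminase family were Padi4 and Padi6. Padi4, the form of granulocytes, had 3 probes with differences of 0.38 (adjusted p = 0.165), 0.54 (adjusted p = 0.0931) and 0.56 (adjusted p = 0.0351). Only the dimmest of the 3, A_52_P278047, was called; it read −4.42, −4.23, −4.57 and −4.32 in vehicle and −4.09, −3.61, −3.86 and −3.73 in enalapril. Its call was kept in 2 of 8 fits with 1 array left out, those without enalapril 1 and without enalapril 4. It was also lost with quantile normalization (adjusted p = 0.0528), median centring (0.0573) and the series matrix values (0.20, adjusted p = 0.684). The same held for normexp (adjusted p = 0.497), the repaired normexp (0.40, adjusted p = 0.107), no filter on dim probes (0.0631) and E1A centring (0.317). So it did with the replicate number as a block (0.0694) and limma's trend and robust options (0.0504). The call was kept with array weights (0.00849), outlier-flagged spots kept (0.0352) and only probes well above background on all 8 arrays (0.0299). Padi6, the form of the oocyte, was not well above background on any array.

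Hair shaft keratins and other shaft products include known targets of Hoxc13 and Foxn1. Of 20 hair shaft keratins and other shaft genes 15 were tested, 12 were below 0, 0 rose and 2 fell, with a median of −0.44, where 55.5% of all probes were below 0 and 8.42% of named genes were called lower. No test of the list was run. Besides S100a3, the cuticle keratin Krt32 fell by 0.77 ± 0.20 (adjusted p = 0.0463), from between −1.10 and −0.67 in vehicle to between −2.07 and −1.24 in enalapril. Krt36, a keratin of the shaft and of nail, gave −1.10 (adjusted p = 0.0724) and −0.81 (adjusted p = 0.158) on its 2 probes. With quantile normalization S100a3, Krt32 and Rxrg did not pass, at an adjusted p of 0.0524, 0.0534 and 0.0578. Krt32 was called in 1 of 8 fits with 1 array left out, that without enalapril 4 (adjusted p from 0.0278 to 0.116). Of the inner root sheath and companion layer 12 genes were tested and 0 were called by limma (1 at an unadjusted p under 0.05), with a median of −0.09. That list also holds Krt6a, at 0.67 (adjusted p = 0.206), and Krt6b. The 5 inner root sheath markers alone (Krt25, Krt27, Krt28, Krt71 and Tchh) had a median of −0.39, with 4 of 5 below 0 and 0 called. The companion layer keratin Krt75 was at −0.67 (adjusted p = 0.131), the inner root sheath keratin Krt25 at −0.59 (adjusted p = 0.18) and Krt6b, an outer root sheath keratin also raised in irritated epidermis, at 0.94 (adjusted p = 0.201).

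Markers of some other cell types differed between the same arrays. For comparison, 8.42% of 16375 named genes with 1 probe each were called lower and 2.78% higher, with a median of −0.10. Of 9 skeletal muscle markers 4 fell, with a median of −0.69, and the log2 of their summed level was 9.13 to 9.66 in vehicle and 8.87 to 9.07 in enalapril. Of 7 adipocyte markers 4 fell, with a median of −0.54 and a summed level of 7.45 to 7.88 against 7.01 to 7.47, which just overlapped. The melanocyte markers, 0 of 5 called, 5 of 5 below 0 and with Tyr above background on no array, had a summed level of 3.41 to 4.17 in vehicle and 3.13 to 3.34 in enalapril. The Schwann cell markers, 1 of 5 lower, had 2.73 to 3.01 and 2.54 to 2.66. The muscle, melanocyte and Schwann cell sums did not overlap between groups, where 20.2% of all probes tested had no overlap in either direction. Of the sebocyte, dermal fibroblast, macrophage, T cell, mast cell and endothelium markers 0 were called, and the summed levels overlapped. Those of the basal and suprabasal keratinocyte and inner root sheath markers overlapped too. The hair shaft markers had a summed level of 3.56 to 4.64 in vehicle and 3.25 to 4.38 in enalapril, which overlapped, and the dermal papilla markers ranged from 0.96 to 1.31 and from 0.80 to 1.28. The part of these differences in the calls given here was not tested.

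The genes most like Hr over the 8 arrays were chosen by Pearson's r after each group's mean was subtracted, among 15001 named genes with 1 probe each. They were Fam160a1 (r = 0.99), Ccdc92 (r = 0.95), Tnrc6c (r = 0.95), Zfp64 (r = 0.95) and Ror1 (r = 0.94). With 8 arrays and 15001 genes these values are a description of these arrays and carry no test. Among the members Hoxc13 was nearest to Hr, at r = 0.87 and rank 36, followed by Msx2 at 0.51 and Padi2 at 0.50, while Vdr was lowest at −0.40.

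**Figure D5:**
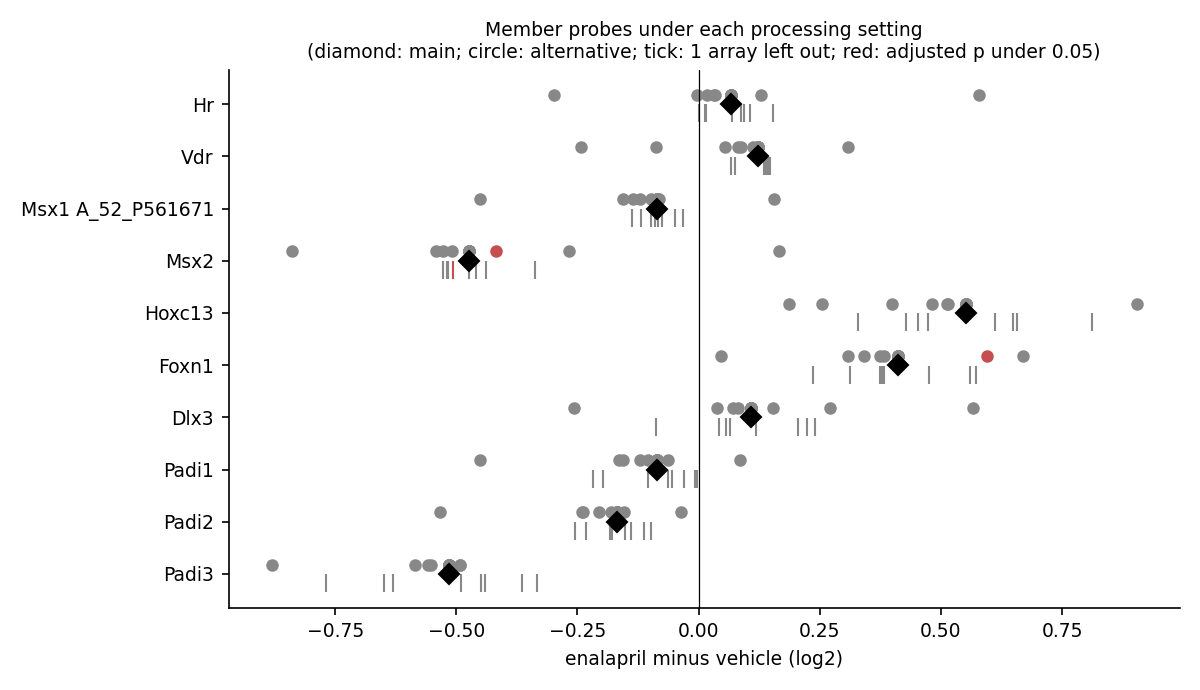
Difference between groups (enalapril minus vehicle, log2) of the 10 tested member probes in the main setting (diamonds), under each other processing (circles) and with 1 array left out (ticks), with adjusted p under 0.05 in red. Red marks appear for Msx2 (array weights, and without enalapril 4) and Foxn1 (array weights). Padi2 and Padi3 stay below 0 and Hoxc13 and Foxn1 above 0 in all 22 settings. Several of these settings leave the estimate itself unchanged.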

How the data were processed

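Skin RNA from 8 mice was hybridised to 8 1-colour (Cy3) Agilent arrays. Per the file headers, the deposited spot intensity came from Agilent Feature Extraction 9.1.3.1 (9.1 in the submitters' processing notes), with background subtraction and detrending inside each array and none of it scaled across arrays. The deposited 0 or 1 flags are other values, used here to filter. The authors' series matrix is in log2 units; it matched the uncentred log2 processed intensity of the scanner files; any further step is not given in the sources used here.

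Non-control spots with an outlier flag were left out, log2 values of a probe's spots were averaged, and the 75th percentile of each array over non-control spots was subtracted. Probes well above background on at least 4 of 8 arrays were fitted with limma 3.58.1 in R 4.3.3 (lmFit and eBayes, group as the only term, two-sided, Benjamini-Hochberg over 28580 probes); version 1.17.8 of data.table read the files. In gene lists the brightest probe stood for a gene. Every probe is given for the members and other named genes, except Rxrb, Sostdc1, Ncor1, Cyp24a1, Tyr and the genes most like Hr. For these exceptions any further probes are not given. The labels call the arrays biological replicates, 4 per group, and the number of arrays limits the precision. Names were updated through RefSeq (GRCm38.p6): 22951 probes by accession, 6659 by symbol, 3096 by synonym, 2024 kept the file's name and 6444 stayed unnamed. A bound sets the brighter group's mean against the higher of the dimmer probe's own value and the lowest signal well above background on each array of the dimmer group.

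Named genes were all members, in each list the 3 with the smallest p, Padi4, Padi6, Rxra, Tchh, Krt1 and Lef1, and the 5 most like Hr; Rxrb, Sostdc1, Ncor1 and Cyp24a1 were added after their values were seen. The members and lists were chosen with earlier results of these data known. Slide or scan as a block could not be fitted, because each held 1 group. The script was checked on simulated data. A 6-week treatment and groups of 6 mice, which the series text also names, were not analysed here.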

Additional observations from a re-analysis of the deposited data

Results flagged for a closer look

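Single arrays stood apart from the other 3 of their group in 3 of 22 groups of member probe values, by the ratio of the gap to the group's range against the critical value of 0.829 for 4 samples; chance gives about 1 in 20. Vdr on vehicle 1 was at 3.06 where the other vehicle arrays were at 3.26 to 3.30, a ratio of 0.842. Vdr on enalapril 1 was at 3.50 where the others were at 3.29 to 3.31, a ratio of 0.890. Msx2 on enalapril 1 was at −3.33 where the others were at −2.82 to −2.76, a ratio of 0.900.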

How the results depend on the processing

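Over all probes 2979 were called. Other settings gave 0 with normexp (3144 at an unadjusted p under 0.05 in limma), 1981 with median centring, 1548 with the series matrix values, 1392 with no filter on dim probes, 8534 with array weights, 280 with centring on 10 E1A control probes and 5526 at an adjusted p under 0.10. Leaving out 1 array gave 396 (without vehicle 1) to 6992 (without enalapril 4). Calls higher in enalapril were 36.6% of the total, but 47.8% with quantile normalization and 4.97% in the series matrix values, where the median of all probes shifted to −0.41. The 0 called members of 10 became 2 with array weights (Msx2, Foxn1), where 8534 of 28580 probes were called. At an adjusted p under 0.10 they became 1 (Msx2), where 5526 of 28580 probes were called. With 1 array left out they were 0 to 1, the 1 being Msx2 without enalapril 4, where 6992 of 28326 probes were called. The 7 called list genes became 0 with normexp, 3 with no filter, 19 with array weights, 0 with E1A centring, 14 at an adjusted p under 0.10, and 1 to 15 with 1 array left out. Members that changed sign were Hr (−0.30 in the series matrix values, −0.0029 with E1A centring, −1e-04 without enalapril 3 in a leave-out range up to 0.153), Vdr (−0.088 with normexp, −0.24 in the series matrix values), Msx1 (0.16), Msx2 (0.17) and Padi1 (0.086) with normexp, and Dlx3 (−0.26 in the series matrix values, −0.088 without enalapril 3 in a leave-out range up to 0.239). The series matrix values and E1A centring move every probe by −0.37 and −0.07, which sets those flips. The normexp flips were absent with the repaired normexp, at 0.0819 for Vdr, −0.0975 for Msx1, −0.2667 for Msx2 and −0.0638 for Padi1. The 2 normexp settings differ only in the local background of 6 spots on enalapril 3. The cause of the flips without enalapril 3 was not tested. Hr reached 0.58 with normexp and 0.13 with the repaired normexp. E1A centring and the repaired normexp (1988 probes, 0 members and 6 list genes called) were chosen after seeing the data.

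Replicate numbers are shared between groups, and the labels do not say whether they pair the mice. Same-numbered arrays deviated together by r = −0.13, 0.08, 0.17 and 0.03, and 3 of 8 arrays correlated best with their own number. These values cannot settle whether the mice were matched, and the main fit did not pair them. With the replicate number as a block 38 probes were called, 0 of them members and 0 of the list genes. Signal over background limits Msx1 A_51_P218196, Padi6 and the dim Foxe1, Fgf5 and Padi4 (A_52_P278047) probes.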
